A study of Mus musculus with 9 samples.

Results

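Clone G7 of the *Atrx* knockout (KO) lines lacked a peak at 1617 merged ATAC-seq regions that were open in both other lines. A region was chosen when at least 2 of 3 wild-type (WT) libraries and at least 2 of 3 libraries of KO clone B10 held a peak in it and 0 of 3 G7 libraries did, on chromosomes 1 to 19, after overlapping or touching peaks of all 9 libraries had been merged. They came from 132893 merged regions, of which 61244 were open in WT and B10, so 2.64% of these were missing in G7 alone. With another line in the place of G7, 1622 of 61214 regions were missing in B10 alone (2.65%), and 2789 of 64111 were missing in WT alone (4.35%). The regions were chosen by the presence and absence of called peaks in these 9 libraries, so all values of peak strength in WT and B10 against G7 are given below as a description.

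The cells were C3H/10T1/2, an established mouse line that stands in for mesenchymal progenitors (MPCs). WT cells had received Cas9 without a guide, and both KO clones grew from a single sorted cell after Cas9 was given with a guide against *Atrx*, a different guide for each clone. The paper describes the empty-vector WT control within the same single-cell workflow, so WT may be clonal too. All lines had thus been exposed to the Cas9 plasmid, which was given transiently. There were 3 libraries of each line from undifferentiated cells, and nothing in the labels says that replicates were separate cultures, so p-values measure only the spread between these libraries. As each KO line is 1 clone, a trait of the clone and an effect of *Atrx* loss cannot be told apart in G7.

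ATAC-seq uses a transposase that inserts adapters where DNA is not wrapped tightly, so that peaks mark promoters, enhancers and other stretches bound by regulatory factors. Enhancers of developmental genes often lie far from the promoter they serve, in introns or in long stretches with no gene. ATRX is a chromatin remodeller of the SWI/SNF family that, with DAXX, places histone H3.3 in heterochromatin.

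The number of peaks per library was 76385 to 88535, and read depth was not given by the lists. Rank below means the percentile of a peak's −log10 q-value within its own library, with 100 the strongest, and fold enrichment is the ratio of signal over background from the peak caller. Peaks at the promoters of 9 of 12 mesenchymal progenitor markers stood in all 9 libraries, *Pdgfra*, *Pdgfrb*, *Prrx1*, *Twist1* and *Col1a1* among them, while *Thy1* and *Nt5e* had none in any library. Of 10 markers of other cell types, 5 had no peak in any library, and *Pecam1* and *Rbfox3* had a peak in all 9.

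The sequences under some of the regions are shown before their values, because most of the regions lie away from promoters and are known only by their position. Each is taken from the GRCm38 reference, which is mm10, on the plus strand, as 201 bases around the median summit of the WT and B10 peaks. Capitals mark exact matches, on either strand, to the motifs searched. These were TGTGGTT for RUNX factors, CCGGAAGT for ETS factors, GGGCGG for the GC box, CAGCTG for the E-box, TGACTCA for AP-1 (TGAGTCA read from the other strand), ACATTCC for TEAD, CCTTTGT for SOX, CCAGNGGGC for CTCF and TTGCNNCAA for C/EBP. Among members with a peak in all 6 WT and B10 libraries, the strongest by its lowest rank lay in a gene-poor stretch beside *Klhl29*. The other distal ones shown are those in the *Epb41l3* intron, beside *Meis1* and between *Wdr11* and *Fgfr2*. The *Fgfr2* pair was added after its values were seen.

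Klhl29 side, chr12:5770585-5770785: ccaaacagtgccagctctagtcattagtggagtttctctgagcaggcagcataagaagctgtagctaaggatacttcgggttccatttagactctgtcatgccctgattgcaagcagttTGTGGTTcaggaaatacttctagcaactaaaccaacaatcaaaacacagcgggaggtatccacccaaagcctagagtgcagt
Epb41l3 intron, chr17:69226077-69226277: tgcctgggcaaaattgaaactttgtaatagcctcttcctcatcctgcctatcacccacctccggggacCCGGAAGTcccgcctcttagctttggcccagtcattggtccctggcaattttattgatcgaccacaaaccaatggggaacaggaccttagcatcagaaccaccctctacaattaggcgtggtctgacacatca
Meis1 side, chr11:18493190-18493390: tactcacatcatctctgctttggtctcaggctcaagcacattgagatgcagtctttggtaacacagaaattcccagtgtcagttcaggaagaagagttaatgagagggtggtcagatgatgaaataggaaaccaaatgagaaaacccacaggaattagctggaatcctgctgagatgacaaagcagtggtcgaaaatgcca
Between Wdr11 and Fgfr2, chr7:129876893-129877093: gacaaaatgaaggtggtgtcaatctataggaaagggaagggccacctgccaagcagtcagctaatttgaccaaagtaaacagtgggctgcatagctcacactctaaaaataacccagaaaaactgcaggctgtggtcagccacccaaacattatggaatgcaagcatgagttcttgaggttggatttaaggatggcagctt
Between Wdr11 and Fgfr2, chr7:130095048-130095248: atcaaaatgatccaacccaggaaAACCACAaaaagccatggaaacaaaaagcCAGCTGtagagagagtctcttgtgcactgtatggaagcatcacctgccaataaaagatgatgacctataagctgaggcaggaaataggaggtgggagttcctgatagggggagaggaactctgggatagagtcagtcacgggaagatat
Fgfr2 intron, chr7:130289117-130289317: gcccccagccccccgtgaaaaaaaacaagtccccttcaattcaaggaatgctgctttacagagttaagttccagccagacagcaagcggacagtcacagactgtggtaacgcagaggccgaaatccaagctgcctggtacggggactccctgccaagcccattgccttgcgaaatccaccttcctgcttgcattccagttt

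For promoter members, the 120 bases that end just before the outermost annotated start within the peak are shown in the direction of the gene, for *Ssh2* on the plus strand and for *Gstm4* and *Tnfrsf22* on the minus strand. GC boxes, the sites of Sp factors common at promoters, are in capitals. Among the 10 promoters named below, these 3 are shown because their peaks hold a protein-coding start with 120 bases before it that lie near the summit and outside annotated UTRs. The *Saysd1* and *Soga3* promoters had no such stretch, and the *Saysd1* region, the strongest of the 10, had no motif match around its summit. The *Ssh2* stretch holds 4 GC boxes and the other two hold 1 each, though only 5.63% of all members have a GC box within 100 bp of the summit.

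Ssh2 promoter, chr11:77348162-77348281: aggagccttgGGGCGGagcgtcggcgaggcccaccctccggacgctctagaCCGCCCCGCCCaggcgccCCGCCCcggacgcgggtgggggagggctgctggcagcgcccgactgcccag
Gstm4 promoter, chr3:108044895-108045014: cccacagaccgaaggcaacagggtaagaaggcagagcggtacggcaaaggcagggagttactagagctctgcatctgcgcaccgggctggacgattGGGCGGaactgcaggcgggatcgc
Tnfrsf22 promoter, chr7:143649662-143649781: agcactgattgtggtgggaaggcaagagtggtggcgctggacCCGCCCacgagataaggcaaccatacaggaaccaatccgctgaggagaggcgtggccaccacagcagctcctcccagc

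The strongest regions missing in G7 were among the strong peaks of both other lines. The region chr12:5770085-5771219, 394 kb from the nearest protein-coding start, *Klhl29*, ranked 85.1, 88.8 and 89.5 in WT and 83.6, 82.1 and 81.4 in B10. Its fold enrichment was 17.0, 18.9 and 19.4 in WT and 17.2, 17.7 and 17.3 in B10, and no G7 library held a peak. A neighbour at chr12:5757234-5758304 ranked 80.3, 83.5 and 86.6 in WT and 72.8, 73.6 and 71.8 in B10. Both sit upstream of *Klhl29* in a stretch with no gene, where G7 had no peak over a long distance.

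A region in an intron of *Epb41l3* (chr17:69225866-69226545), which codes for a protein linking membrane proteins to the cytoskeleton, ranked 87.1, 78.6 and 82.5 in WT and 84.3, 79.0 and 76.7 in B10. All 4 of the regions open in WT and B10 whose nearest start is that of *Epb41l3* were missing in G7. The one over the start itself (chr17:69156403-69157920) was weak in WT, at ranks 1.63, 5.22 and 13.3, and stronger in B10, at 59.3, 58.9 and 58.4. Beside *Meis1*, a homeobox factor that pairs with HOX proteins, the region chr11:18492654-18493516 lay 525 kb from the *Meis1* start, next to the start of the gene *Gm12022*, and ranked 84.0, 76.4 and 76.0 in WT and 75.2, 72.8 and 66.9 in B10. The promoter of *Meis1* itself held a peak in all 9 libraries, at ranks 85.2 to 92.3.

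Of the members with a peak in all 6 WT and B10 libraries, the promoters of protein-coding genes with the highest lowest rank were those of *Saysd1*, *Ssh2*, *Soga3*, *Gstm4*, *Tnfrsf22*, *Zkscan7*, *Klhl21*, *Pdxp*, *Pmf1* and *Tmed2*. The *Saysd1* promoter (chr14:20082456-20083431) ranked 79.6, 81.1 and 80.9 in WT and 84.5, 84.8 and 82.2 in B10. The *Ssh2* promoter (chr11:77347745-77348675), of a phosphatase that activates the actin-severing protein cofilin, ranked 81.9, 75.9 and 76.5 in WT and 78.5, 74.0 and 74.0 in B10. At *Saysd1* all 3 B10 ranks lay above those of WT, at *Ssh2* the lines overlapped, and G7 had no peak at either.

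The *Soga3* promoter (chr10:29143410-29144654) ranked 85.9, 86.6 and 86.1 in WT and 74.6, 71.8 and 70.1 in B10, so that B10 lay below WT in every library. The *Gstm4* promoter (chr3:108044565-108045345), of a glutathione S-transferase, ranked 80.7, 76.4 and 72.4 in WT and 74.1, 74.4 and 64.6 in B10. The *Tnfrsf22* promoter (chr7:143649098-143649997), of a decoy receptor for TRAIL, ranked 78.4, 76.0 and 81.3 in WT and 69.5, 64.7 and 63.2 in B10. *Zkscan7*, a zinc finger gene, had its region at chr9:122886308-122887381 with ranks of 56.0 to 74.9 over the 6 libraries. Groups of WT and B10 overlapped at *Gstm4* and not at *Soga3*, *Tnfrsf22* or *Zkscan7*.

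The other 4 promoter regions were of middle strength, with ranks of 43.1 to 67.6 over the 6 libraries, and had a low fold enrichment. At chr4:152007545-152007959 near the start of *Klhl21*, which codes for an adaptor of a CUL3 ubiquitin ligase, the fold enrichment was 3.9, 3.4 and 3.15 in WT and 2.98, 3.34 and 3.13 in B10. At chr15:78915749-78916687 near *Pdxp*, a pyridoxal phosphate phosphatase, it was 4.71, 5.0 and 4.44 in WT and 3.00, 3.01 and 2.96 in B10. The region chr3:88407117-88407366 near *Pmf1* spanned 3.81 to 4.92, and chr5:124538857-124539397 near *Tmed2*, a cargo receptor between ER and Golgi, spanned 4.32 to 6.05. By comparison, the *Ssh2* promoter spanned 17.0 to 19.7.

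The largest group of neighbouring regions missing in G7 lay between *Wdr11* and *Fgfr2* on chromosome 7. *Fgfr2* codes for a receptor tyrosine kinase for fibroblast growth factors with known roles in bone and limb. Between the end of *Wdr11* (base 129635738) and 100 kb past the *Fgfr2* start (base 130266263, the outermost annotated start inside the peak there) were 65 merged regions, of which 26 were open in WT and B10, and 20 of the 26 were missing in G7 alone. Of the 20, 15 had a peak in all 6 WT and B10 libraries. The number of these 65 regions with a peak was 47, 30 and 27 in WT, 48, 35 and 31 in B10, and 4, 5 and 3 in G7.

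Most of the regions in this stretch were of middle strength. The strongest by its lowest rank was chr7:129876645-129877458, at −389 kb from the *Fgfr2* start on the *Wdr11* side, with ranks of 83.5, 72.9 and 76.1 in WT and 67.0, 73.3 and 65.5 in B10. At chr7:129801235-129802536 the ranks were 78.1, 75.2 and 76.8 in WT and 66.0, 63.1 and 69.8 in B10. At chr7:130094859-130095527, at −171 kb from the start, they were 74.7, 56.7 and 51.6 in WT and 58.5, 47.8 and 50.3 in B10. The lines overlapped at the last of these, and WT lay above B10 at the middle one.

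In the *Fgfr2* introns that only its longest annotated transcript covers, 4 regions upstream of the usual start were missing in G7. The region chr7:130288224-130289678 ranked 65.2, 65.4 and 55.2 in WT and 73.2, 63.6 and 65.9 in B10. The next, chr7:130299020-130299918, ranked 69.0, 57.2 and 43.6 in WT and 77.1, 74.4 and 72.4 in B10, with B10 above WT in every library. The region over the *Fgfr2* start (chr7:130265009-130266639) was no member, since it had a peak in 3 WT libraries, at ranks 74.1, 67.1 and 66.0, and in none of B10 or G7. The *Wdr11* start had a peak in all 9 libraries, at ranks 83.5 to 88.9, with G7 at 87.8, 86.8 and 88.9.

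G7 kept a peak at 6 of the 26 regions. At 2 of them, nearest to *Wdr11*, all 3 G7 libraries had a peak, and at the other 4 only 1 or 2 did. One of those 4, chr7:129846961-129847622, was the region just outside the rule with the highest mean rank over its WT and B10 peaks, 86.3 (lowest 81.5, highest 90.8), and its single G7 peak ranked 8.68. The stretch from −407 to −7.96 kb, measured from the *Fgfr2* start, held the longest unbroken run, 10 regions open in WT and B10 with no G7 peak inside. The plot of this stretch shows every peak by library.

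**Figure D1:**
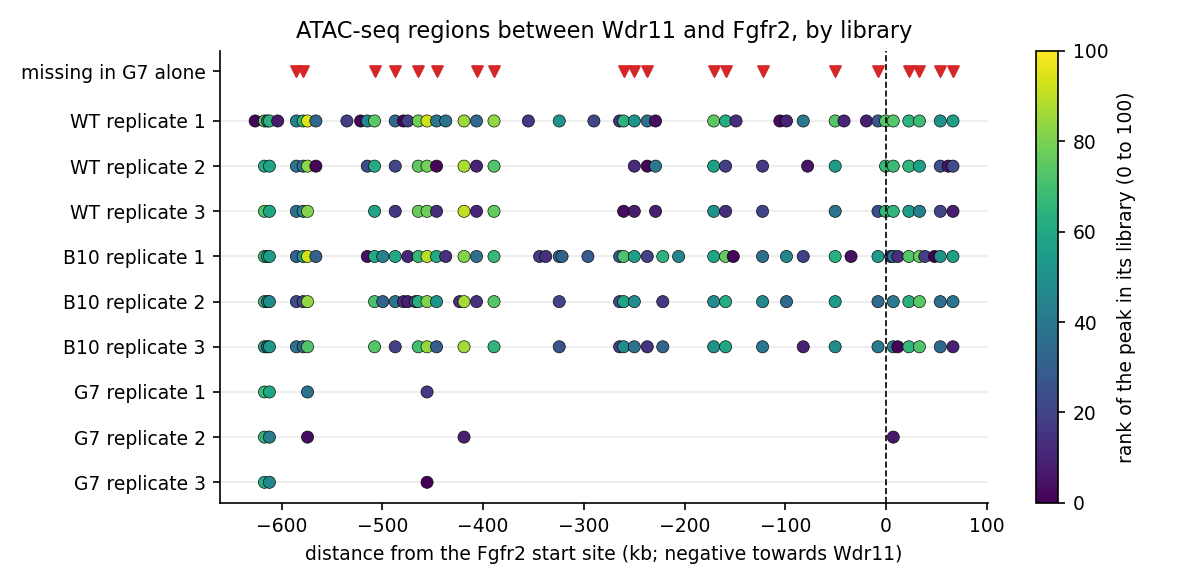
Each dot is a region with a peak in that library (rows, 3 per line), placed by its distance in kb from the *Fgfr2* start site (dashed line) and coloured by the rank of the peak. Triangles mark the 20 regions missing in G7 alone. The WT and B10 rows hold 27 to 48 dots and the G7 rows 3 to 5, mostly at the *Wdr11* end.

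In all, 12 runs of at least 5 neighbouring regions, counted among those open in WT and B10, were missing in G7 from end to end, and they held 80 of the 1617 members. Of the members, 407 (25.2%) had a neighbour that was also missing. For regions missing in B10 alone the same count was 198 of 1622 (12.2%), the longest run was 4 and there were 0 runs of 5. For regions missing in WT alone, 592 of 2789 (21.2%) had such a neighbour, the longest run was 22 and 12 runs reached 5. The members are thus not independent of each other, and intervals on their shares cover counting error only.

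On chromosome 17, 9 regions over 847 kb (chr17:49624234-50470866) were missing, across *Kif6*, *Dazl* and *Rftn1*, which codes for a lipid raft protein. Peaks there numbered 10, 12 and 12 in WT and 16, 16 and 14 in B10, and G7 had none between peaks 1011 kb apart. On chromosome 2, 9 regions in *Macrod2* (chr2:140904442-141435178), an ADP-ribose hydrolase gene that surrounds the adhesion gene *Flrt3*, had 10, 12 and 10 WT and 10, 13 and 12 B10 peaks and no G7 peak. The *Flrt3* start had a peak in all 9 libraries, at ranks of 95.2 to 95.8 in WT, 91.2 to 95.3 in B10 and 65.9 to 68.3 in G7.

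On chromosome 1, 8 regions around *Msc* and *Trpa1* were missing (chr1:14655878-14925237). *Msc* codes for musculin, a bHLH factor of the muscle lineage, and 10 of the 13 regions open in WT and B10 nearest to its start were missing in G7. Peaks in the run numbered 8, 10 and 9 in WT and 6, 6 and 8 in B10. *Efna5*, an ephrin ligand gene on chromosome 17, was the gene with most members, 15 of 45 regions, of which 7 formed a run at chr17:61221282-61325859. That run had 6, 5 and 5 peaks in WT and 10, 10 and 10 in B10.

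*Ptprt*, a receptor tyrosine phosphatase gene, had all 6 of its open regions missing in G7 (chr2:162131437-162683108), with 5 to 9 peaks per WT or B10 library in the run. The run beside *Klhl29* (chr12:5282521-5794202) held 6 regions, each with a peak in all 6 libraries, and no G7 peak was called over 2422 kb around it. A run of 5 near *B230118H07Rik* on chromosome 2 lay in a stretch of 2805 kb with no G7 peak, in which the B10 libraries had 24 to 31 peaks and the WT libraries 5 to 8. Runs of 5 also lay at *Rgs21* (chr1:144451840-144603378) and at *Xylt1* (chr7:117303621-117415363), which codes for the enzyme that starts glycosaminoglycan chains.

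The *Xylt1* start was itself a member, with ranks of 68.7, 61.3 and 62.3 in WT and 13.4, 22.6 and 17.5 in B10. In the last 2 runs, at *Adamts20* and *Prickle1* (chr15:93699791-94445109) and beside *Meis1* (chr11:18492654-18817008), single G7 peaks lay outside the regions counted, 1 and 2 in number. *Adamts20* codes for a secreted metalloprotease and *Prickle1* for a planar cell polarity protein. Peak lists hold no reads between peaks, so closed chromatin and DNA absent from the clone cannot be told apart in these stretches.

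**Figure D2:**
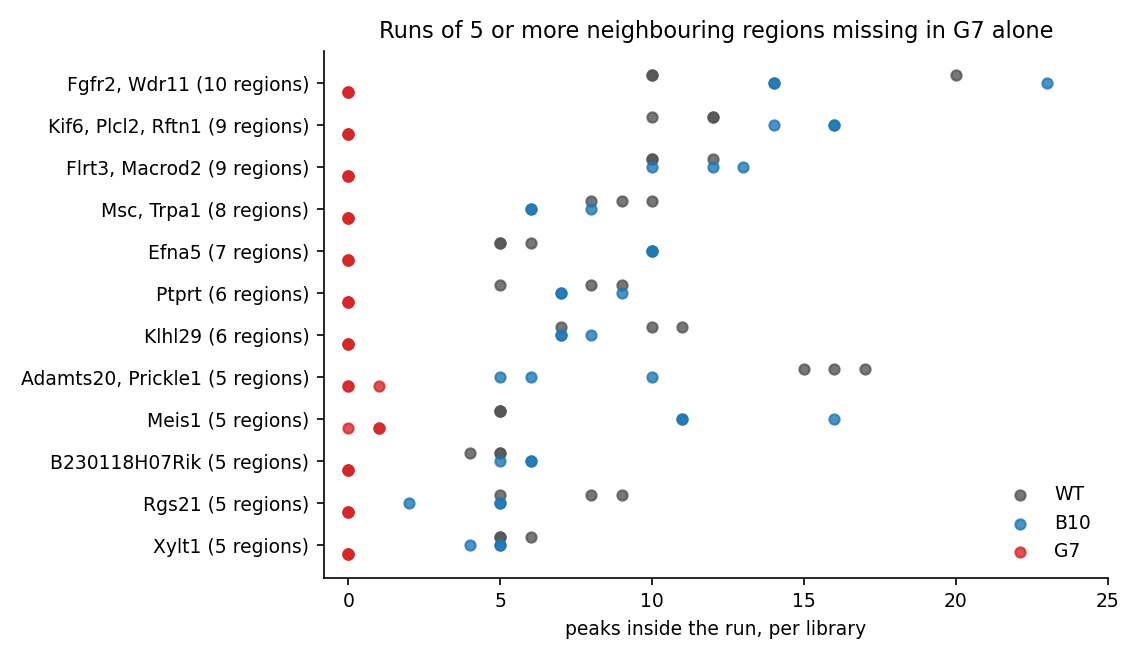
Number of peaks inside each of the 12 runs (rows, named by the nearest protein-coding genes) for every library, coloured by line. The G7 libraries have 0 peaks in 10 of the runs and at most 1 each in the runs at *Adamts20* and *Meis1*, while WT and B10 libraries have 2 to 23.

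As a whole the members were weak peaks in the lines that had them. Their median rank was 24.3 to 29.0 in the 6 WT and B10 libraries, against 61.7 to 65.7 for regions open in WT and B10 that held a G7 peak. Only 467 of the members had a peak in all 6 libraries, 676 in 5 and 474 in 4, and the replicate 1 libraries held fewest of them, 73.8% in WT and 73.1% in B10 against 83.4% to 91.2% in the other 4. The share of open regions missing in G7 was 12.8% (95% Wilson interval 12 to 13.7) in the weakest decile by mean rank, 1.21% in the fifth and 0.016% in the strongest. For B10 and WT alone the weakest decile gave 11.8% and 18.4%.

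**Figure D3:**
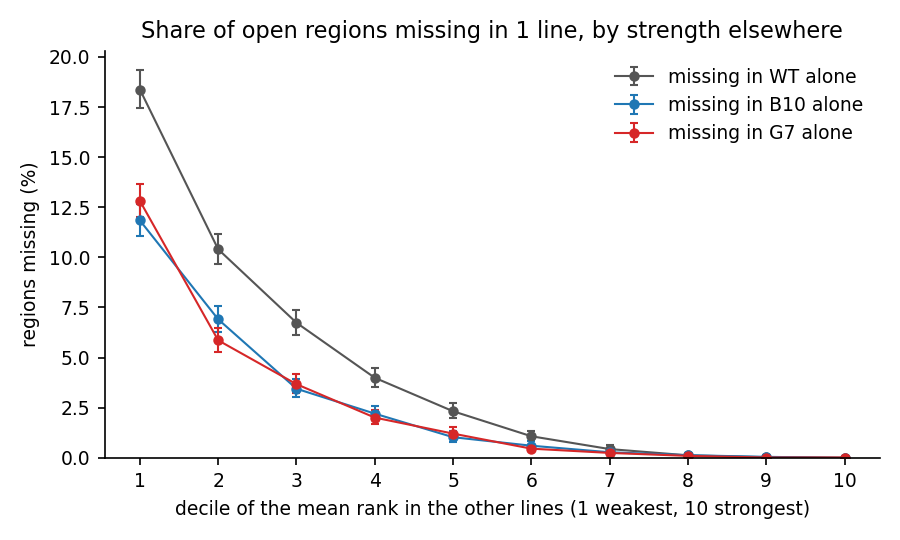
Percent of open regions missing in 1 line (y) by decile of their mean rank in the other lines (x, 1 weakest), with 95% Wilson intervals. The G7 curve goes from 12.8% to 0.016% and runs close to that of B10 (11.8% to 0%), with WT higher, from 18.4%, over the weaker deciles.

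At the edge of the rule, the 474 members with 2 libraries in each line had a median mean rank of 19.1, and the 2374 regions just outside it, with 1 G7 library, had 26.7. Regions with no G7 peak and 1 WT or 1 B10 library short of the rule numbered 1415 and 1298, with medians of 19.3 in both cases. The member with the lowest mean rank, 1.95, lay at chr1:30798485-30799248 near *Phf3*. The one with the highest, 95.2 over 5 libraries, lay at chr2:98665041-98665216 near *Gm10800*, in a high-copy repeat that common mm10 exclusion lists remove. The count also changed when 1 library was left out, in a direction that the rule set. Without a WT or B10 library, both others of that line had to hold a peak, so the count could only fall. It was 996 without WT replicate 2, 1036 without WT replicate 3, and 914 and 1040 without B10 replicate 2 or 3. Without a G7 library, fewer libraries had to lack a peak, so the count could only rise. It was 2450 and 2610 without G7 replicate 1 or 2.

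Members were less often at promoters than regions that held a G7 peak. Of the 1617, 44.0% (41.6 to 46.4) were intergenic, 31.8% lay in an intron, 20.2% (18.3 to 22.2) within 3 kb of an annotated start, 2.72% in an exon and 1.24% in a 3′ UTR. Regions that held a G7 peak were at a promoter in 36.5% and intergenic in 29.6% of cases. When these were weighted to the mean rank and number of libraries of the members, 23.5% were at a promoter and 35.1% intergenic. Of regions missing in B10 alone 28.2% were at a promoter, and of those missing in WT alone 22.4%.

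The members also lay further from protein-coding starts. The nearest protein-coding start was over 200 kb away for 18.2% (16.4 to 20.2) of the members, against 5.94% of regions with a G7 peak, 7.86% after weighting, 7.15% for regions missing in B10 alone and 13.6% for WT alone. The median distance was 36.9 kb for the members, 16.6 kb for regions with a G7 peak, 23.7 kb for these after weighting and 23.4 kb for B10 alone. Of the 327 promoter members, 158 were at a protein-coding start and 169 at other starts. The members were narrower, with a median width of 496 bp against 809 bp, or 607 bp after weighting.

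The AP-1 motif, the site of FOS and JUN dimers, was the most common of those searched. It lay within 100 bp of the summit in 25.5% (23.5 to 27.7) of members, against 19.3% of regions with a G7 peak, 19.7% after weighting, 22.2% of regions missing in B10 alone, 10.6% of those missing in WT alone and 16.4% of all merged regions. This gap rested on G7 replicate 1, without which the members gave 19.8% and the weighted regions 20.3%. The AP-1 share was 27.6% for intergenic members, 25.9% for intronic and 19.6% for promoter members, beside 23.8%, 24.2% and 12% among regions with a G7 peak.

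Of the other motifs, RUNX and CTCF were less common in members than in the weighted regions and ETS was more common, with the weighted share outside the interval of the members. RUNX was found in 7.98% of members (6.75 to 9.40) and in 9.74% of the weighted regions (8.65% of all regions). TEAD was found in 4.82% and 5.88% (5.34%), and SOX in 4.82% and 5.32% (5.29%). CTCF was found in 1.3% of members (0.851 to 1.98) and 2.41% of weighted regions (2.28% of all). ETS was found in 1.18% of members (0.754 to 1.83), 0.299% of weighted regions and 1.68% of the same regions unweighted (0.931% of all). The ETS share rested on 19 members. Regions missing in B10 alone gave 7.77% for RUNX, 2.84% for CTCF and 0.617% for ETS. Those missing in WT alone gave 10.2%, 1.51% and 0.251%. A low RUNX share was thus also seen for B10 alone, and a low CTCF share for WT alone. Shares of these motifs with 1 library left out were not computed. The GC box stood in 5.63% and 6.03%, though in 16.6% of unweighted regions with a G7 peak and 10.2% of all. E-box and C/EBP stood in 14.9% and 1.24% of members, and in 14.7% and 1.67% of all regions. The median GC content of the 201 bases was 47.8% for members, 50.7% for regions with a G7 peak and 48.3% after weighting.

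The share missing differed between chromosomes. It was highest on chromosome 17, with 123 of 2864 open regions (4.29%, 3.61 to 5.10), then on chromosome 2, with 209 of 4949 (4.22%), and on chromosome 1, with 175 of 4431 (3.95%). It was lowest on chromosome 19, with 26 of 1936 (1.34%, 0.918 to 1.96). These 3 highest chromosomes held 7.61%, 12.9% and 10.8% of the members. The shares of B10 alone on chromosomes 17, 2 and 1 were 1.28%, 1.92% and 2.54%, and those of WT alone 2.83%, 2.70% and 3.25%. Chromosome 17 did not stay highest in 4 of the 9 sets that leave out 1 library. The highest share was then on chromosome 2, at 3.20% without WT replicate 3 and at 6.77%, 6.51% and 5.76% when G7 replicate 1, 2 or 3 was left out.

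Peaks that every library had also ranked differently by chromosome. Over regions open in all 9 libraries, the mean rank on chromosome 1 minus the library's mean over all chromosomes was −3.74, −3.42 and −3.77 in G7, against −1.0, −0.62 and −0.80 in WT and −1.21, −0.80 and −1.21 in B10. On chromosome 2 it was −2.48, −2.52 and −2.33 in G7, against 1.91, 2.25 and 2.29 in WT and 0.88, 0.85 and 0.89 in B10. On chromosome 17 it was 0.58, −0.19 and −0.02 in G7, against 1.35, 0.72 and 0.83 in WT and 2.85, 2.46 and 2.54 in B10. G7 lay below both other lines on chromosomes 1, 2 and 17. Across the 19 chromosomes the share missing and this G7 difference had a Pearson r of −0.64 and a Spearman rho of −0.70, as a description, since both measures come from the same G7 libraries. The number of copies of each chromosome was not measured, and its part was not tested.

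**Figure D4:**
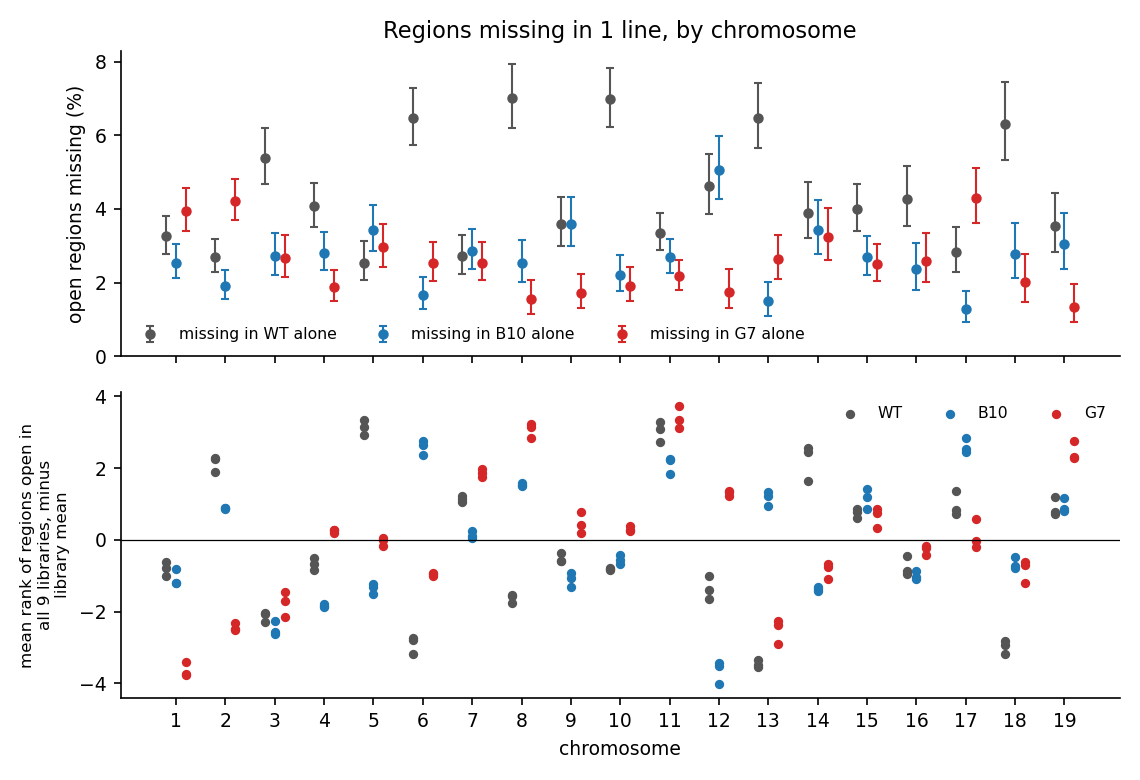
Top, percent of open regions missing in 1 line alone on each chromosome with 95% Wilson intervals. Bottom, mean rank of regions open in all 9 libraries on the chromosome minus the library's mean, 1 dot per library. On chromosomes 1, 2 and 17 G7 is the highest of the lines at the top (3.95%, 4.22% and 4.29%) and the lowest at the bottom.

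Open regions around the members also ranked lower in G7, as those around regions missing in B10 or WT alone did in that line. Within 50 kb of a member were 4151 regions open in all 9 libraries, 8.94% of all such regions. Their mean rank minus the library's mean was −0.49, −0.66 and −0.61 in G7, against 0.76, 1.03 and 0.99 in WT and 0.68, 0.83 and 0.87 in B10. The G7 mean was thus 1.45 below that of the other 6 libraries, and WT and B10 overlapped. In log2 fold enrichment in place of rank, the same difference was only −0.015. The G7 mean rank was below those of both WT and B10 at 1761 (42.4%) of these regions and at 34.8% of all regions open in all 9 libraries. With ranks taken relative to the same chromosome the difference was 0.97 below.

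The difference varied with distance. Within 10 kb of a member the mean was −2.06 ± 0.42 in G7 (SD, n = 3), −0.83 ± 0.13 in WT and −0.79 ± 0.05 in B10. From 10 to 50 kb it was −0.20 in G7 against 1.39 in WT and 1.21 in B10, and from 200 to 500 kb 0.23 against 0.48 and 0.30. Around the regions missing in B10 alone, B10 was the low line within 10 kb, at −3.26 against −1.68 in WT and −1.64 in G7. From 10 to 50 kb B10 was at −0.90 against 1.20 and 1.25. Around the regions missing in WT alone, WT was at −2.49 within 10 kb, against −0.17 in B10 and −0.29 in G7. From 10 to 50 kb WT was at −1.29 against 0.95 and 0.80. Lower ranks near the missing regions were thus not particular to G7. The median distance from a member to the nearest other peak was 7.97 to 8.71 kb in the WT and B10 libraries and 10.7 to 11.4 kb in those of G7, and it was over 100 kb for 6.06% to 8.97% and 15.5% to 18.4% of members. The rule enters these distances, since a neighbouring member can hold a WT or B10 peak but never a G7 peak. Such distances for regions missing in B10 or WT alone are not given here.

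**Figure D5:**
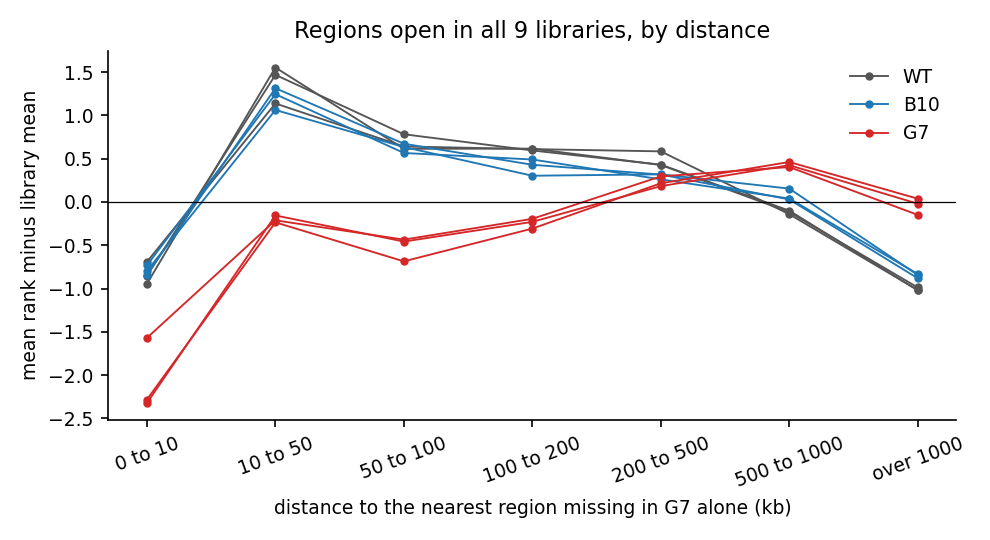
Mean rank of regions open in all 9 libraries minus the library's mean (y), by distance in kb to the nearest region missing in G7 alone (x), 1 line per library. The 3 G7 lines lie below the other 6 in the first 4 distance bins, by the most within 50 kb, and above them beyond 500 kb.

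The comparison of B10 with WT at the members was the one that the rule had not used, as it treated both lines alike. The mean rank of the members' peaks was 32.1, 29.4 and 28.7 in WT and 30.3, 28.8 and 26.8 in B10, so B10 was lower by 1.42 on the rank scale (30.0 ± 1.8 against 28.6 ± 1.7, SD, n = 3) and the lines overlapped. An exact two-sided permutation test over libraries gave p = 0.5, with 0.1 the smallest p that 3 against 3 allows. The direction turned without B10 replicate 3 (0.85 higher) and without G7 replicate 1 (0.21 higher). At regions that held a G7 peak B10 was higher by 1.70 (p = 0.2 by the same exact test). In fold enrichment the lines did not overlap at the members, with library medians of 6.06, 5.99 and 6.05 in WT and 5.33, 5.53 and 5.51 in B10. In mean log2 fold enrichment B10 minus WT was −0.12 (exact permutation p = 0.1). At regions that held a G7 peak the medians were 10.2, 10.5 and 10.2 in WT and 9.95, 10.3 and 10.0 in B10.

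Single members did differ between WT and B10. Of the 467 with a peak in all 6 libraries, all 3 B10 ranks lay below all 3 WT ranks at 104 (22.3%), and above them at 81 (17.3%). Over all 49745 regions open in the 6 libraries these shares were 13.5% below and 20.5% above. Among the members lowest in B10 were the *Dusp18* promoter on chromosome 11 (mean rank 84.3 in WT and 18.2 in B10) and a region near *Cytl1* (79.4 and 18.0). The highest in B10 were regions near *Adcyap1*, a neuropeptide gene (2.82 and 64.3), and the *Epb41l3* start (6.71 and 58.9). These 4 were chosen after their values were seen.

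Lists of lineage and signalling genes held few members. A region was counted near or at a gene when that gene's start was the nearest protein-coding one, at any distance. Among those counted, 1 member each of *Vgll3*, *Maf*, *Pax3* and *Dcn* lay 457, 331, 300 and 238 kb away. Whether the regions act on these genes was not tested. The members had 1267 nearest genes, 1074 of them with 1 member, out of 15298 genes nearest to a region open in WT and B10, and 32 genes with at least 4 members held 185. Near mesenchymal progenitor markers 3 of 114 open regions were missing in G7 (2.6%), 2 near *Twist2* and 1 near *Cd44*, beside the 2.64% over all open regions. Near adipocyte genes it was 3 of 138 (2.2%), all near *Cd36*, the fatty acid transporter, while 15 were missing in B10 alone (10.1%). The *Cd36* region chr5:17879903-17880391, with an AP-1 and a RUNX match, ranked 26.3, 34 and 33.5 in WT and 51.9, 52.1 and 50.3 in B10.

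Near cartilage genes 3 of 204 (1.5%) were missing in G7, at *Matn3*, *Snorc* and *Sox6*, whereas 28 were missing in WT alone (11.8%). The *Snorc* region had ranks of 2.07 to 5.40 in 4 libraries. Near bone genes it was 2 of 72 (2.8%), at *Msx2*, a homeobox factor, and *Spp1*, which codes for osteopontin. The *Msx2* region chr13:53426340-53426830 ranked 49.6, 45.5 and 47.0 in WT and 25.1, 35.5 and 43.9 in B10. Near muscle genes it was 4 of 80 (5.0%), 2 near *Pax3*, 1 near *Pax7* and 1 near *Des*, and the *Pax7* region chr4:139858597-139858952, 25.1 kb from the start and with an AP-1 match, ranked 64.3, 57.5 and 61.2 in WT and 34.6, 33.6 and 45.4 in B10.

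Collagen and matrix genes had 9 of 261 open regions missing (3.4%), at *Col6a3*, *Dcn*, *Fbn1*, *Fn1*, *Thbs1* and *Tnc*. TGF-beta and BMP genes had 8 of 320 (2.5%), 3 of them near *Bmp2*, a bone morphogenetic protein. The *Bmp2* region 1.59 kb from its start (chr2:133550053-133550565) ranked 31.9 and 40.4 in WT replicates 2 and 3 and 43.9, 40.7 and 40.9 in B10. Wnt genes had 6 of 247 (2.4%), AP-1 factor genes 2 of 97 (2.1%), at *Batf3* and *Maf*, and Hippo pathway genes 2 of 173 (1.2%), both near *Vgll3*, a cofactor of TEAD.

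Markers of other cell types had 4 of 52 open regions missing (7.7%, 3.0 to 18.2), 2 near *Cdh5* and 1 each near *Cdh1* and *Rbfox3*. The *Rbfox3* region, in an intron 89.3 kb from the start, ranked 62.4, 57.4 and 66.0 in WT and 32.5, 37.3 and 40.9 in B10. As many of their regions, 4 (8.16%), were missing in B10 alone. The interval holds the share over all open regions for 10 of the 11 lists, and lies above it for these markers of other cell types.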

How the data were processed

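Chromatin accessibility was measured by ATAC-seq in 3 libraries each of WT, B10 and G7 cells, grouped by the genotype and clone in their labels. The authors aligned paired-end reads to mm10 and called peaks with MACS2 in paired-end mode, separately for each replicate, with the version not given in the sources used here. The peak names hold the word input, but whether an input library entered peak calling is not given in the sources used here. The methods state that blacklisted regions were left out of region-based analyses, and whether this covers the deposited lists is not given in the sources used here. For each peak the authors deposited a fold enrichment (a ratio over background) with a p-value and a q-value, both as −log10, and the lowest −log10 q-value in a list was 1.3 to 1.31. The lists carry no read counts, which leaves the libraries' depths unknown, and no count model was applied. The display score was not used.

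From these lists, peaks on chromosomes 1 to 19 were merged where they overlapped or touched, with Python 3.11.15, pandas 2.3.3, numpy 2.4.6 and scipy 1.17.1. Annotation came from GENCODE M21. A region took the first fitting class among promoter (within 3 kb of a start), UTR (5′ before 3′), other exon, intron, or none of these (intergenic). Strength was the percentile of the −log10 q-value of the strongest peak within its library. Weighted shares give regions with a G7 peak the members' mean ranks (in steps of 10) and numbers of WT and B10 libraries. Intervals are 95% Wilson intervals and cover counting error only. Among members with a peak in all 6 WT and B10 libraries, the 10 strongest and 10 strongest at promoters, by lowest rank, were named. Up to 2 regions per gene list, runs of at least 5 neighbouring members, and regions at the edge of the rule were also named. The members and gene lists were chosen with earlier results of these data known. B10 and WT were compared by an exact two-sided permutation test over libraries. Same-numbered libraries deviated together over regions open in all 9 libraries, with r of 0.58, 0.40 and 0.38 between WT and B10, so their pairing was tried as a block. The merging and the rule were tested on simulated peak lists of 6000 sites. All 232 sites that fitted the rule, by design or by random draw, were recovered. Other thresholds, merging distances, windows and sets of libraries were tried, and results on chromosomes X and Y were kept apart. One result is not reported here.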

Additional observations from a re-analysis of the deposited data

Results flagged for a closer look

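On chromosomes X and Y, which the comparisons left out, 44 regions met the same rule. All lay on chromosome X, where they were 44 of 1295 regions open in WT and B10 (3.40%), beside 2.64% on chromosomes 1 to 19, and on chromosome Y 0 of 20 did. They were set apart for a closer look only because they lie in data outside the main count. None of the 6 merged regions over *Atrx*, on chromosome X, met the rule, and the region over its start had a peak in all 9 libraries.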

How the results depend on the processing

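Across the alternatives, 52 values kept their direction and stayed within the limits set for the main value, 41 kept their direction but moved beyond those limits, and 2 reversed. For the B10 minus WT rank the limit was only that the permutation test kept its call, whatever the size of the value. With a smallest possible p of 0.1 for 3 against 3, that call could not change. These values could thus only be counted as kept or as reversed. The nearby difference in log2 fold enrichment was counted as moved whatever its size. The count of 1617 became 467 when 3 of 3 WT and 3 of 3 B10 libraries were asked for, 997 when WT and B10 peaks needed a −log10 q of 5, 5584 from replicate 1 alone, and 914 to 2610 with 1 library left out. Leaving out a WT or B10 library could only lower the count, and leaving out a G7 library could only raise it. The promoter share was 10.0% with a window of 1 kb and 19.3% to 21.5% with 1 library left out. The AP-1 share was 19.1% and 29.3% within 50 and 200 bp of the summit, 28.9% with the −log10 q of 5, 19.8% from replicate 1 alone and 19.8% to 29.4% with 1 library left out. The highest share on a chromosome was 3.20% with the −log10 q of 5 and 3.58% with equal numbers of peaks per library, both on chromosome 17, 12.5% on chromosome 2 from replicate 1 alone, and 3.20% to 6.77% with 1 library left out. The G7 difference in nearby rank was −1.25 within 10 kb, −1.08 within 200 kb, −0.015 as log2 fold enrichment and −1.91 to −1.37 with 1 library left out. Relative to the same chromosome it was −0.97, an alternative chosen after seeing the data, as were leaving out the runs of 5 or more members and counting each run once, which kept the promoter and AP-1 shares within their intervals. The B10 minus WT rank was −2.41 to 0.85 with 1 library left out, with exact permutation p of 0.1 to 1, and −0.12 as log2 fold enrichment (exact permutation p = 0.1). In fold enrichment this p is the smallest that 3 against 3 allows, and the lines did not overlap. With the replicate block it was −1.42, lower in B10 in 3 of 3 pairs, with an exact permutation p of 0.25. As this is the smallest p that 3 pairs allow, the block could not change the call. The cause of these changes was not tested. A region missing from a list may lie just under the q-value threshold, and depth per library was unknown.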
